A study of Mus musculus with 2 samples.

Results

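The 10 genes described here encode regulators, uptake and storage proteins of the adipocyte programme (Pparg, Cebpa, Fabp4, Lpl and Plin2) and enzymes of fatty acid synthesis (Fasn, Scd1, Scd2, Acaca and Acly). They were chosen by name, and every probe that the platform annotation gives to one of these symbols was taken from the intensity table of both arrays. This gave 12 probes for the 10 genes, of 16593 named genes in all. Expression was measured on 2 single-colour Illumina bead arrays. One array carried RNA from mouse fibroblasts under an electromagnetic field (EMF) on gold nanoparticles (AuNPs), and the other carried RNA from control fibroblasts. By its title, the series belongs to a study of field-mediated reprogramming of cells into dopamine neurons. The fibroblasts' strain, age, passage and medium, the particle coating and the field settings are not given in the labels used here. No array of AuNPs alone or of EMF alone was analysed here, so the agents cannot be told apart. With 1 array per condition, no value below has a replicate error and no difference was tested.

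PPARγ, encoded by Pparg, is a nuclear receptor that pairs with a retinoid X receptor, and together with C/EBPα, encoded by Cebpa, it drives the conversion of fibroblast-like precursors into adipocytes. Fatty acids reach the cell through lipoprotein lipase or are made from citrate by a chain of enzymes in which ATP citrate lyase supplies acetyl-CoA, acetyl-CoA carboxylase makes malonyl-CoA, fatty acid synthase builds palmitate and stearoyl-CoA desaturases introduce a double bond. The fatty acids are then stored as triglyceride in droplets coated by perilipins. Fibroblast cultures often hold adipocyte precursors, and macrophages also express Pparg, Lpl and Plin2.

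The promoter sequences of Pparg, the gene past 1.5-fold, and of 2 genes for comparison are shown here, since the table used holds 3 starts for Pparg. Which of its transcripts each probe reads is not known here. RefSeq (GRCm38.p6) gave 8 promoters for 6 of the 10 genes. Fabp4, Lpl, Scd1 and Scd2 are named only. Each line holds the 250 bases before a transcript start, 5′ to 3′ on the gene's strand. Capitals mark matches, on either strand, to the CCAAT box (CCAAT), the GC box (GGGCGG) and the nuclear receptor core motif (AGGTCA).

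Pparg, chr6:115360894-115361143, plus strand: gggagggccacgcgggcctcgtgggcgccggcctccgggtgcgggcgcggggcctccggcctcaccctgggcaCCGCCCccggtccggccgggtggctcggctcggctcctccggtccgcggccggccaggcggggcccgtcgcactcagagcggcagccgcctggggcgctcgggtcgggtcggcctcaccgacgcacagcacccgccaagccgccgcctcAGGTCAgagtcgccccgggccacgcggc
Pparg, chr6:115362099-115362348, plus strand: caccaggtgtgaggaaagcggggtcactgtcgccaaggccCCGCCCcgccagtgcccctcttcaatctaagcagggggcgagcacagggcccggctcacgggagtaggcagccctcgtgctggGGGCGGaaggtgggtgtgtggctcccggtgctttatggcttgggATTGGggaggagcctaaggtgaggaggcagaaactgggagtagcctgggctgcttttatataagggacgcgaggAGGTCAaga
Pparg, chr6:115421816-115422065, plus strand: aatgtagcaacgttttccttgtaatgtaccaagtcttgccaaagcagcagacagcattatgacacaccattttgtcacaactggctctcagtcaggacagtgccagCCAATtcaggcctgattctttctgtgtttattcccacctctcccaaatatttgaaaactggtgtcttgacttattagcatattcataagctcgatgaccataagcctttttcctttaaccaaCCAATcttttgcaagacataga
Plin2, chr4:86670060-86670309, minus strand: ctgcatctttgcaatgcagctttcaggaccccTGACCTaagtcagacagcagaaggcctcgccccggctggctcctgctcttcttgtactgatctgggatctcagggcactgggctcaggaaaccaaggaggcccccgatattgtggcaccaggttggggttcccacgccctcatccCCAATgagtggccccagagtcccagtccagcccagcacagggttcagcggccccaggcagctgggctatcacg
Acly, chr11:100528001-100528250, minus strand: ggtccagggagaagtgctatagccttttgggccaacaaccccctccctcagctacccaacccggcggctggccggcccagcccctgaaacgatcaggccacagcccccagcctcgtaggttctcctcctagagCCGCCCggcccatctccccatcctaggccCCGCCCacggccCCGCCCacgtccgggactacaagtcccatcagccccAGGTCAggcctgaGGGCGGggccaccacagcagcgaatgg

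The core motif AGGTCA was in 4 of the 8 promoters, namely 2 of the 3 of Pparg and those of Plin2 and Acly. The promoters of Acaca, Cebpa and Fasn, which are not shown, did not hold it. The comparison genes shown are therefore those with the motif. The Acaca start used, chr11:84195438, lies inside the gene, which begins at 84129635. The bases before the first base of Acaca were thus not searched. CCAAT was in 4 of the 8 and GGGCGG in 3. Across all 32851 promoters of the table, 14.0% held AGGTCA, 33.8% held CCAAT and 32.7% held GGGCGG within the same 250 bases. The 3 Pparg promoters differed in base composition, with GC contents of 82.4%, 63.6% and 40.8%, against a median of 52.4% over the table. A tandem repeat of the core motif with a spacer of 1 base (AGGTCANAGGTCA, the form PPARγ binds best) was in none of the 8 promoters and in 0.0335% of all. A sterol regulatory element-like motif (TCACNCCAC), the E-box CACGTG and the C/EBP palindrome TTGCGCAA were likewise in none of the 8, and in 1.05%, 6.02% and 0.164% of all promoters. Matches are descriptions of letters and not of binding.

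The arrays were closely alike. Median intensities were 162 on the EMF and AuNP array and 165 on the control array, and 11963 of the 25697 probes were detected on the first and 12012 on the control array (detection p under 0.01, against negative-control beads). Of the named genes, 8651 were detected on at least 1 array. Fibroblast genes were present on both arrays (13 of 13 listed markers with a named probe were detected, among them Col1a1, Thy1 and Pdgfra). Markers of macrophages were present too. Of the 13 listed with a named probe, 12 were detected, and Itgam, an integrin of myeloid cells, was not. Their summed normalized signal was 199100 with EMF and AuNPs and 186294 in control (linear scale), a ratio of 1.07. The ratio over all detected genes was 1.01. Bright probes weigh most in such a sum. Of these, Fcer1g stood at 15.25 (log2) with EMF and AuNPs and 14.95 in control, and Lyz2 at 15.38 with EMF and AuNPs and 15.49 in control. Because Pparg, Lpl and Plin2 are also genes of macrophages, these values stand beside the results below, and their part in them was not tested.

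Of the 10 genes, 9 were detected and most of these read lower with EMF and AuNPs, by small amounts. Differences are given as log2, EMF and AuNPs minus control, after background correction and quantile normalization. Of the 9 detected genes, 7 were below 0 and 2 above, with a median of -0.20. Over all 8651 detected genes the median was 0.03, and 44.0% were below 0. A limit of 1.5-fold was passed downwards by 1 of the 9 genes, Pparg, and upwards by 0. Among all detected genes 2.91% passed it downwards and 3.34% upwards. A limit of 2-fold was passed by 0 of the 9 in either direction, and by 0.485% of all detected genes downwards and 0.52% upwards. A count of 1 gene is too small to be set apart from that share. In a bulk sample, fewer cells of a type and less RNA per cell cannot be told apart.

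**Figure D1:**
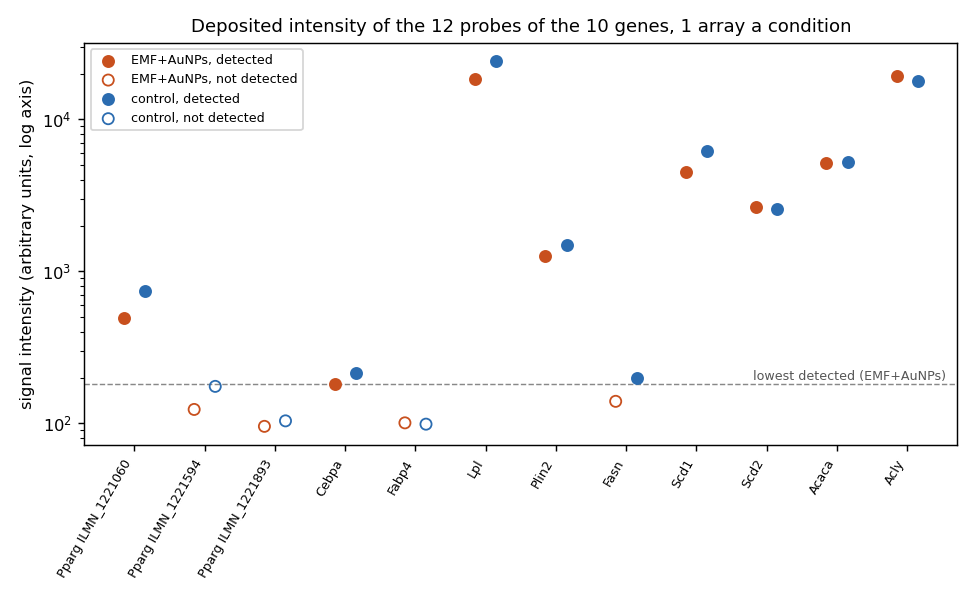
Signal intensity as deposited (vertical axis, arbitrary units, logarithmic) of each of the 12 probes on the EMF and AuNP array (orange, left of each pair) and on the control array (blue), with filled points for probes detected at a p under 0.01. The lowest detected intensity with EMF and AuNPs is drawn as a dashed line at 181, and 8 probes were detected on both arrays.

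Pparg had 3 probes. The bright one, ILMN_1221060, read 496 with EMF and AuNPs and 742 in control and was detected on both. After normalization it stood at 8.69 with EMF and AuNPs and 9.28 in control (log2), a difference of -0.59, or 1.5-fold lower. This lies on the 1.5-fold limit (0.585 on the log2 scale), so the call depends on the background correction, and the difference was -0.49 in the deposited log2 values. The 2 other probes were not detected on either array. ILMN_1221594 read 124 with EMF and AuNPs and 175 in control, where its detection p was 0.0175, and ILMN_1221893 read 95.6 with EMF and AuNPs and 104 in control. All 3 probes were thus dimmer on the EMF and AuNP array, but only the first was above background.

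Cebpa, which encodes the partner factor C/EBPα, was barely above background. Its probe read 182 with EMF and AuNPs and 215 in control, with detection p-values of 0.00877 with EMF and AuNPs and 0.00251 in control. The log2 difference was -0.36, within the robust SD of 0.42 among genes of like brightness. This robust SD, from the median absolute deviation of the differences of the roughly 433 genes in the same one of 20 brightness bins, is the only yardstick of spread here. Real change and noise both enter it. By it, Pparg stood 2.18 robust SDs below 0 and Cebpa 0.857.

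Lpl, the secreted lipase that frees fatty acids from lipoproteins, had a bright probe. It read 18507 with EMF and AuNPs and 24258 in control. The normalized values were 14.17 with EMF and AuNPs and 14.56 in control, a difference of -0.39 (1.31-fold lower). Among 433 genes of like brightness, Lpl included, 6 (1.39%) were as low or lower, Lpl itself among them. That places Lpl 2.84 robust SDs below 0.

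Plin2, the perilipin that coats droplets in most cell types, read 1255 with EMF and AuNPs and 1491 in control. Its log2 difference of -0.20 lay within the robust SD of 0.23. Fabp4, the fatty acid carrier of adipocytes and macrophages, was not detected on either array. Its probe read 101 with EMF and AuNPs and 98.8 in control, with detection p-values of 0.767 with EMF and AuNPs and 0.796 in control. Thus of the 5 adipogenic and storage genes 4 were detected, and the differences of these 4 ran from -0.59 to -0.20.

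The enzymes of fatty acid synthesis did not share a direction. Acly, which supplies cytosolic acetyl-CoA, read 19219 with EMF and AuNPs and 17991 in control, a log2 difference of 0.10. Acaca, the carboxylase of the committed step, read 5149 with EMF and AuNPs and 5272 in control, a difference of -0.01. Both lay within the robust SDs of their brightness, 0.14 for Acly and 0.17 for Acaca. Fasn, the synthase itself, was detected in control alone. It read 140 with EMF and AuNPs (detection p 0.104) and 200.3 in control (detection p 0.00376), and the difference has only a bound, at least 1.14-fold lower. The bound sets the control value against the lowest detected value of the EMF and AuNP array (6.43, log2), and the measured normalized values were 5.53 with EMF and AuNPs and 6.61 in control.

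The stearoyl-CoA desaturase genes Scd1 and Scd2 encode isoforms with the same reaction, and their probes differed. Scd1 read 4531 with EMF and AuNPs and 6164 in control, normalized to 12.13 with EMF and AuNPs and 12.56 in control (log2), a difference of -0.43 (1.34-fold lower). Scd2 read 2645 with EMF and AuNPs and 2556 in control, a difference of 0.09. Of 433 genes of like brightness, 7 (1.62%) were as low as Scd1 or lower, Scd1 itself among them. Scd1 stood 2.56 robust SDs below 0 against 0.522 above 0 for Scd2. Each rests on 1 probe. Whether the 2 differences themselves differ was not tested.

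**Figure D2:**
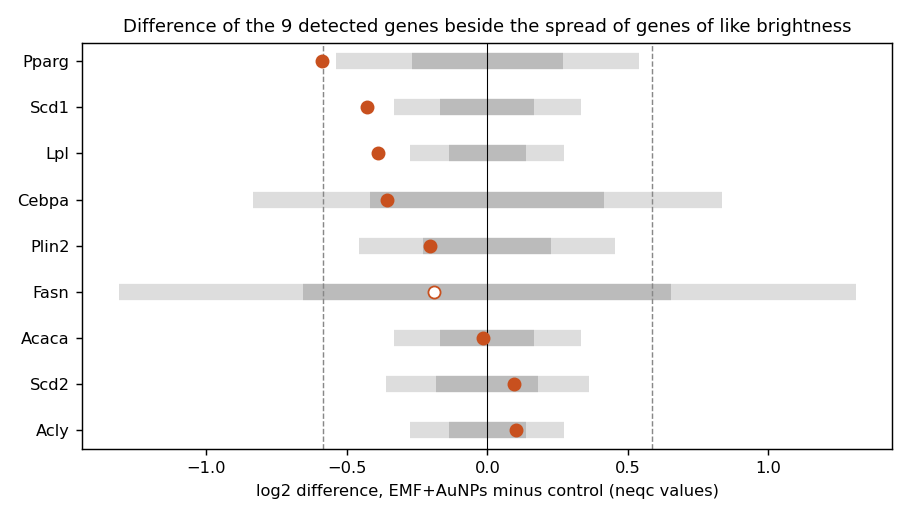
Log2 difference, EMF and AuNPs minus control (horizontal axis), of the 9 detected genes by their brightest probe, as filled points, with the bound for Fasn as an open point. Dark and light grey bars reach 1 and 2 robust SDs of genes of like brightness on each side of 0, and dashed lines mark 1.5-fold. Pparg, Scd1 and Lpl lie outside the light bars, to the left.

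A total of 3 of the 9 genes, Pparg, Scd1 and Lpl, were more than 2 robust SDs below 0 and 0 were more than 2 above. Of all detected genes 4.2% were that far below and 4% that far above. This rule was chosen after the values were seen, and the 3 genes carry no test. In order of their differences over all 8651 genes, counted from the lowest, Pparg stood at 249, Scd1 at 500, Lpl at 603 and Cebpa at 701. Many genes outside lipid metabolism had larger differences.

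The listed regulators of adipogenic and lipogenic transcription, coactivators and partners of nuclear receptors among them, lay on both sides of 0. Of 21 listed activators with a named probe 15 were detected, 11 below 0 and 4 above, with a median of -0.14. The limit of 1.5-fold was passed downwards by 3 and upwards by 1, against 2.91% and 3.34% of all detected genes. Those lower were Klf5, a Krüppel-like factor that induces Pparg (-0.64), Nr1h3, which encodes the oxysterol receptor LXRα that activates Srebf1 (-0.62), and Ebf2, a factor of committed precursors, which was detected in control alone (bound -0.61). Ppargc1b, a coactivator of nuclear receptors, was higher (0.70). Cebpb, which acts early in adipogenesis ahead of Pparg, read 12388 with EMF and AuNPs and 9821 in control (0.35), and Ncoa1 was higher too (0.29). Bmp4 (-0.46), Klf4 (-0.43, other probes -0.24 and -0.21) and Ebf1 (-0.38) were lower. Srebf1, the sterol-regulated activator of the lipogenic enzymes, differed by 0.23, within its robust SD of 0.28.

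Inhibitors of adipogenesis showed no common direction, with 6 of 13 detected genes below 0, 7 above and a median of 0.03. The 1 past 1.5-fold was Dlk1, a transmembrane inhibitor and mark of preadipocytes, which read 16365 with EMF and AuNPs and 26062 in control (-0.66). The others among the 3 largest were Foxo1 (0.43) and the transcriptional coactivator gene Wwtr1 (-0.33, another probe -0.60). Both the activator Klf5 and the inhibitor Dlk1 were therefore lower.

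Markers of preadipocytes included several dimmer genes. Of 10 listed with a named probe 9 were detected, 6 below 0 and 3 above, with a median of -0.30. At least 1.5-fold lower were 3 of the 9, against 2.91% of all detected genes, namely Dlk1, Ebf2 and the stem cell antigen gene Cd34 (-0.60). Without background correction Cd34 differed by -0.35 and Ebf2 by -0.36. That value for Ebf2 is a measured difference and not a bound. Its measured normalized values with background correction were 6.33 with EMF and AuNPs and 7.03 in control. The receptor genes Pdgfra (-0.09) and Pdgfrb (0.12), which mark fibroblasts as well as precursors, lay close to 0, as did Icam1 (0.10) and Clec11a (0.15). Most mature adipocyte markers were not detected. Of 15 with a named probe, 12 were not detected on either array, among them Plin1, Cidec, Lipe, Cd36, Slc2a4 and Retn. Adipoq, which encodes adiponectin, read 235 with EMF and AuNPs and 281 in control (-0.27). The leptin gene Lep was detected in control alone (bound -0.26), and Adipor2, an adiponectin receptor gene of many tissues, read 5056 with EMF and AuNPs and 5235 in control (-0.03).

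**Figure D3:**
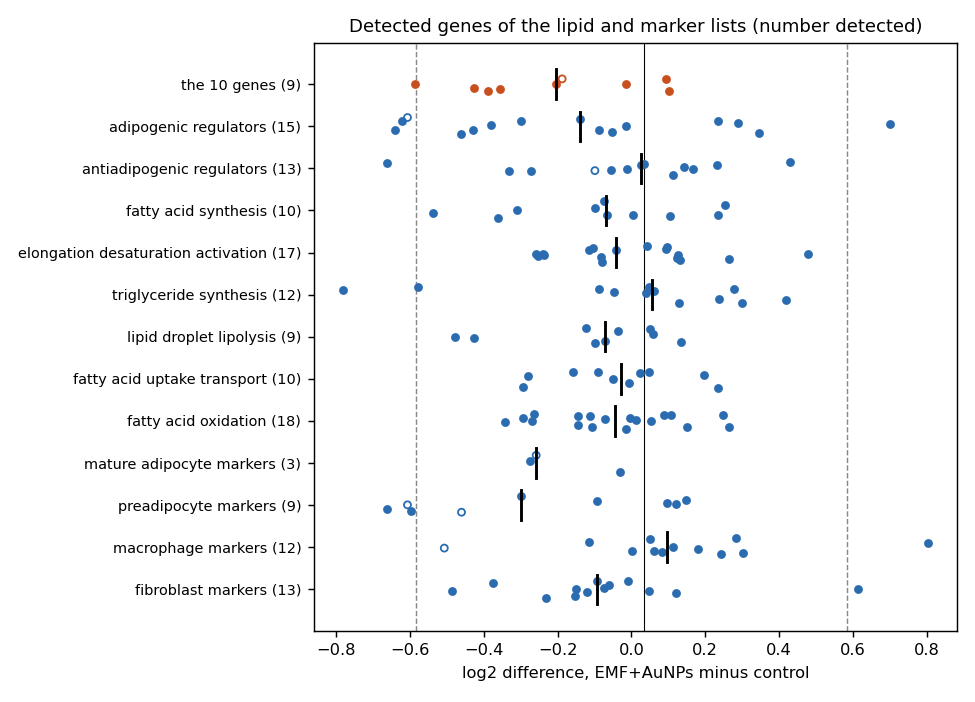
Log2 difference, EMF and AuNPs minus control (horizontal axis), of each detected gene in the 10 genes (orange) and in the related lists (blue), with bounds as open points and the list's median as a black bar. The thin line marks the median of all 8651 genes, 0.03, and dashed lines mark 1.5-fold. Most list medians lie within 0.15 of 0.

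By the brightest probe of each gene, the list medians of the other steps of fatty acid metabolism were close to the median of all genes. Around the synthesis enzymes, 10 detected genes had a median of -0.07 and 0 passed 1.5-fold by their brightest probe. Another probe of Slc25a1 (-0.61) and of Insig1 (-0.62) passed it. The 3 with the largest differences were Acss2, which makes acetyl-CoA from acetate (-0.54), Insig1, a sterol-regulated retention protein (-0.36), and the mitochondrial transferase gene Mcat (-0.31). The citrate carrier gene Slc25a1, which feeds Acly, differed by -0.10. Elongation, desaturation and activation genes had a median of -0.04 over 17 detected, and 0 passed 1.5-fold by their brightest probe. Other probes of the elongase gene Elovl1 read -0.55, -0.01 and -0.60 beside 0.10, and those of Cyb5r3 read -0.93 and -0.15 beside -0.10. Acsl4, an acyl-CoA synthetase gene, led with 0.48, followed by the elongase gene Elovl4 (0.26) and the desaturase family gene Fads3 (-0.26).

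Triglyceride synthesis genes had a median of 0.05, with 4 of 12 below 0. Lpin1, which encodes a phosphatidate phosphatase that also coactivates transcription, read 232 with EMF and AuNPs and 354 in control. Its difference of -0.78 (1.72-fold lower) was the 1 past 1.5-fold. Agpat3, an acyltransferase gene, differed by -0.58 and Lpin2, a relative of Lpin1, by 0.42. Droplet and lipolysis genes had a median of -0.07 over 9 detected and 0 past 1.5-fold, with the monoglyceride lipase gene Mgll at -0.48 (another probe at -0.02), the lysosomal acid lipase gene Lipa at -0.43 and the droplet formation gene Fitm2 at 0.14. Uptake and transport genes had a median of -0.03 over 10 detected, with Fabp3 at -0.29, the lipoprotein receptor gene Vldlr at -0.28 (other probes at -0.51 and -0.53) and Angptl4, an inhibitor of lipoprotein lipase and a target of PPARs, at 0.23. Oxidation genes had a median of -0.04 over 18 detected, and 0 passed 1.5-fold by their brightest probe. The largest differences were those of Cpt1c (-0.34), Etfdh (-0.29) and Hadhb (-0.27). Other probes of Acaa2 read -0.77, -0.94 and -0.59 beside -0.11, and those of Etfa read -0.30, -0.60 and -0.32 beside -0.11. Another probe read -0.59 beside -0.07 for Acadl, -0.26 beside -0.14 for Acadm and -0.04 beside 0.09 for Etfb.

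Counted as distinct genes, the 8 pathway lists held 103 detected genes, of which 5 were at least 1.5-fold lower and 1 at least 1.5-fold higher (2.91% and 3.34% of all detected genes). Their median was -0.05, with 57.3% below 0, against 44.0% of all detected genes. Of these 6, Dlk1 stayed past 1.5-fold without background correction, at -0.66. Klf5 differed by -0.56, Lpin1 by -0.51, Nr1h3 by -0.42, Ebf2 by -0.36 (measured, not a bound) and Ppargc1b by 0.42. Among the markers of other cells, the macrophage list had a median of 0.10 with 10 of 12 detected genes above 0, and the fibroblast list a median of -0.09 with 10 of 13 below 0. By the brightest probe, Cd52 (0.80), Ptprc (detected in control alone, bound -0.51) and Fcer1g (0.30) had the largest differences in the first. In the second these were Ddr2 (0.61), S100a4 (-0.49) and Vim (-0.37). Other probes of the macrophage markers read 0.13 and -1.38 for Adgre1 (brightest 0.06), and 0.75 and 0.15 for Lyz2 (brightest -0.11). Those of the fibroblast markers read 0.66 for Col3a1 (brightest -0.15), -0.41 for Dcn (brightest -0.07), and -0.16 and -0.23 for Col6a1 (brightest -0.12). The summed normalized signal of the fibroblast list was 216801 with EMF and AuNPs and 234275 in control, a ratio of 0.925. Over all detected genes the ratio was 1.01. The part of these markers in the differences of the 10 genes was not tested.

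**Figure D4:**
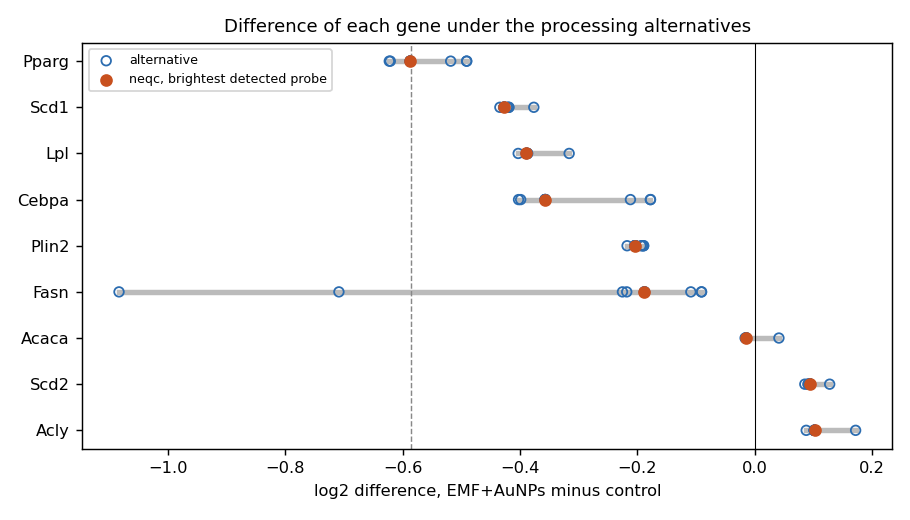
Log2 difference, EMF and AuNPs minus control (horizontal axis), of each of the 9 detected genes under the values used here (orange) and under the processing alternatives (blue). The dashed line marks 1.5-fold lower. Scd1 ran from -0.43 to -0.38 and Lpl from -0.40 to -0.32, while Fasn ran from -1.08 to -0.09.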

How the data were processed

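Total RNA from 2 fibroblast samples was hybridised to 1 array each, with Trizol extraction and Illumina TotalPrep labelling per the labels' protocols. The authors deposited a linear signal intensity per probe, not normalized between arrays, beside a detection p-value that the authors deposited for each intensity. The submitters' processing notes name GenomeStudio 2011.1. The deposited log2 table equalled the quantile normalized log2 intensity to within 4.99988e-07. Gene names came from the platform annotation, which named 1 gene for 23978 of 25697 probes, several for 0 and none for 1719.

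Intensities were processed with neqc in limma 3.58.1 (R 4.3.3), with an offset of 16. A gene was represented by its brightest probe detected (p under 0.01) on at least 1 array. Where only 1 array detected it, the difference is given as a bound. No test was possible with 1 array each, so genes were called by a 1.5-fold size, and precision is limited by the number of arrays. Robust SDs used 20 brightness bins. The recovery of known 1.5-fold and 2-fold changes after neqc was checked on simulated arrays. The bounds, the choice of probe and the brightness bins were not checked in this way.

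Genes were named by a fixed rule: all 10 genes and, of each list, those past 1.5-fold and the 3 with the largest differences. Others, such as Srebf1, Cebpb, Ncoa1, Bmp4, Klf4, Ebf1, Slc25a1, Pdgfra, Pdgfrb, Icam1 and Clec11a, were chosen after their values were seen. So were the genes named for the values of another probe. The 10 genes and the lists were chosen with earlier results of these data known. Of 197 listed genes, 17 had no named probe and were not analysed here.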

Additional observations from a re-analysis of the deposited data

How the results depend on the processing

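No paired analysis was possible because each condition has 1 array, and no array could be left out. Alternatives changed the background correction, the normalization, the detection filter, the probe taken for a gene or the size of the call. The count of the 10 genes at least 1.5-fold lower was 1, beside 2.91% of all genes. It became 0 with normexp without negative controls (1.91% of all genes), and with no background correction or the deposited log2 values (1.6% each). At 2-fold it was also 0 (0.485%). In each of these Pparg differed by less than the limit. The count became 2 with a detection p under 0.05 (3.22% of all genes) and with no detection filter (2.51%). There Fasn joined Pparg at -0.71 and -1.08, since the floor for its bound is lower or absent. The count at least 1.5-fold higher was 0 under every alternative run, beside 1.38% to 4.15% of all genes. At 2-fold that share was 0.52%. The median of the 9 genes, -0.20, became -0.36 with a detection p under 0.05. The median of all genes lay between -0.01 and 0.06 under all settings run. Acaca, not called, ran from -0.02 to 0.04 and was above 0 with median centring. The number of the 10 genes more than 2 robust SDs lower, 3, ran from 2 to 4. With the values used here, 4.2% of all detected genes were that low. Dim probes (Cebpa, Fasn and the 2 undetected Pparg probes) are limited by signal over background.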

Other observations

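Most of the 10 genes have 1 probe, so the agreement between probes was looked at in the related lists. Of 24 pathway genes with at least 2 probes detected on both arrays, all probes had the same sign in 18 (75.0%), against 56.3% of 2054 such genes on the arrays. Over all such genes, the sign seen on 1 probe was thus often not shared by another. This limits the reading of signs that rest on 1 probe, as in most of the 10 genes. The gap between the brightest and the next probe had a median of 0.23 (log2) in the pathway genes and 0.18 over all such genes. This gap holds both measurement error and any difference between the transcripts that the probes read. The next brightest probe was at least 1.5-fold lower in 5 of the 24 pathway genes and higher in 0. Over all 2054 such genes it was lower by that much in 153 and higher in 63. Whether the pathway genes differ from all such genes in these counts was not tested. Values chosen after they were seen include Insig1, with other probes at -0.62 and -0.54 beside -0.36, Slc25a1 at -0.61 beside -0.10, and Me1, which encodes malic enzyme, at -0.56 beside 0.25. Cyb5r3, a reductase that serves the desaturases, had other probes at -0.93 and -0.15 beside -0.10. Acaa2, a thiolase gene of fatty acid oxidation, had other probes at -0.77, -0.94 and -0.59 beside -0.11, and Acadl, an acyl-CoA dehydrogenase gene, had 1 at -0.59 beside -0.07. Going the other way, Hilpda had another probe at 0.30 beside 0.05, Ddit3 at 0.26 beside 0.03 and Med1 at 0.21 beside -0.14.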
